A study of Mus musculus with 9 samples.

Results

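The 46 genes described here had low RNA levels in Hbxip knockout (KO) mouse embryonic stem cells in pluripotent culture and higher levels in every other library of the study. They were chosen on FPKM, a level per gene length and library size. With 0.5 added to each FPKM, the higher of both KO pluripotent libraries had to be at least 3-fold below the lowest of the other 7 libraries, and those 7 had to reach a FPKM of 2. Of 20287 genes listed, 9883 reached a FPKM of 2 in those 7 libraries and 49 met both conditions. Ccnd1, Zic2 and Peg3 were left out by name, which gave the 46 members, of which 44 are protein coding, 1 is a long noncoding RNA and 1, gene ID 19368, had no entry in the gene table used. Without the second KO pluripotent library the same rule gave 85 genes, the 46 among them. The study profiled E14 embryonic stem cells of strain 129 by RNA-seq, either wild type (WT) or Hbxip-/-, in 3 cultures: pluripotent, 96 h after withdrawal of LIF (the cytokine that holds mouse stem cells in self-renewal), and embryoid bodies, which are floating aggregates in which stem cells differentiate. Each culture had 1 WT and 2 KO libraries, and the labels do not say whether the KO libraries came from separate clones or cultures, so p-values measure the spread between these KO pairs, which may be technical. Because the KO pluripotent values chose the members, every comparison of the members with those libraries is given as a description without a test.

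Hbxip, also named Lamtor5, encodes a subunit of Ragulator, the complex that anchors the Rag GTPases to lysosomes, where they recruit the growth kinase mTORC1 in response to amino acids. In mouse embryonic stem cells, naive pluripotency is left through a formative state in which transcription factors such as those of the Zic and Sox families come up before lineages separate.

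The libraries held 10147277 to 10863845 expected counts, so that 3 counts corresponded to 0.276 to 0.296 CPM. The KO pluripotent libraries stood apart from the rest: they lay at 71.9 and 62.7 on the first principal component of all genes, which carried 51.9% of the variance, against -53.4 to 9.44 for the other 7, and at 69.6 and 60.7 when the members were left out. They also listed the fewest genes, 16992 and 17098, against 17383 to 18026 elsewhere. Hbxip itself was at a FPKM of 38.5 to 41.8 in the WT libraries and 15.5 to 31.0 in the KO libraries, so reads from the gene remained and the genotype is taken from the labels. All 10 embryonic stem cell markers were listed in each library, with a summed FPKM of 4124 to 5300. In pluripotent culture the sum was 5300 in WT and 4450 and 4834 in KO, with 6 of 10 lower and 1 higher in both KO libraries. Nanog was at 390 in WT and 233 and 265 in KO, and Esrrb, the higher one, at 186 against 230 and 215. Dppa5a, the largest part of the sum, was at 1723 against 1592 and 1741. The summed FPKM of 10 extraembryonic endoderm markers was 8.03 in WT and 27.0 and 21.1 in KO pluripotent cells, mostly from Amn (1.78 in WT, 22.3 and 17.5 in KO), with Afp, Cubn, Sox17 and Ttr under 0.5 in every library. That of 9 neuroectoderm markers was 135 in WT and 60.4 and 59.5 in KO pluripotent cells, mostly from Tubb3 (118 in WT, 51.8 and 49.8 in KO), while Sox1 was at 0.90 in WT and 1.68 and 1.86 in KO, with Pax3 and Zic1 under 0.5 in every library. That of 10 fibroblast markers was 39.7 in WT and 19.2 and 24.0 in KO pluripotent cells, mostly from Thy1 (34.2 in WT, 16.4 and 20.8 in KO), with Col3a1, Dcn, Lum and Postn under 0.5 in every library. The sum was 7.90 in WT and 6.15 and 6.5 in KO pluripotent cells for 10 primitive streak and mesoderm markers, and 58.7 in WT and 67.8 and 61.7 in KO for 9 trophoblast markers, of which Elf5 was under 0.5 in every library. Of the 9 trophoblast markers, 7 were lower and 2 higher in both KO pluripotent libraries. The 2 higher were Krt8 (14.35 in WT, 40.8 and 34.4 in KO) and Hand1 (0.70 in WT, 12.4 and 10.1 in KO). The part of these cell type markers in the members' values, here and in the differentiated cultures, was not tested, and in such bulk samples fewer cells of a type and less RNA per cell cannot be told apart.

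The members were low rather than absent in pluripotent KO cells, so the working name "silenced" goes against the data for most of them. Their median FPKM was 0.92 and 1.39 in the KO pluripotent libraries and 9.80 in the WT pluripotent library. It was 15.1 in WT and 7.44 and 8.73 in KO cells after LIF withdrawal, and 12.9 in WT and 9.73 and 10.4 in KO embryoid bodies. Over the 9883 genes that met the level condition, the median lay between 14.3 and 15.2 in all 9 libraries. In both KO pluripotent libraries 16 members were under a FPKM of 1, and 19 were at 1 or above. For 40 of the 46, the first KO pluripotent library lay below the second. The predicted gene Gm5796 was the 1 member with no count in either KO pluripotent library, against 57 counts in WT pluripotent cells, so it was at least 36.7-fold lower when set against 3 counts over the KO group. The noncoding 2610035F20Rik had 2 counts in the KO pluripotent pair and 59 in WT, a ratio of 0.0175 with a 95% counting interval of 0.0021 to 0.066. Both genes were chosen for low values in these KO libraries, so the bound and the interval describe counting error only and are not a test.

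**Figure D1:**
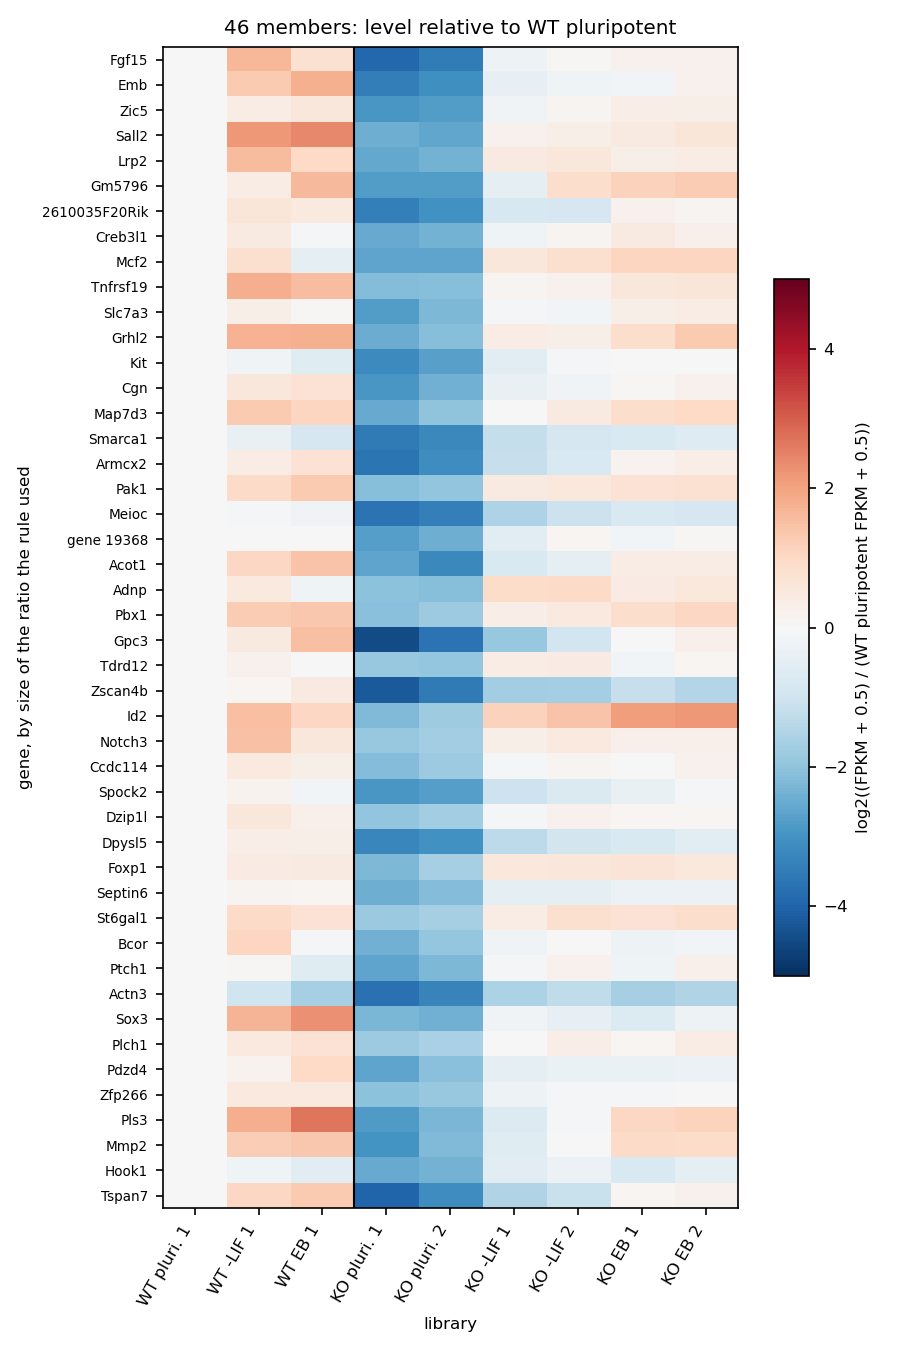
Level of each of the 46 members in the 9 libraries, as the log2 ratio of FPKM + 0.5 to the same value in WT pluripotent cells; columns are libraries, WT left of the line and KO right of it (pluri. for pluripotent, -LIF for 96 h without LIF, EB for embryoid bodies), and rows are genes in the order of the ratio the rule used. Both KO pluripotent columns are low for every gene, which the rule required, and after LIF withdrawal the KO columns lie below the WT column for most genes.

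The members on the formative and primed epiblast list were Zic5, Sall2 and Sox3. Zic5, a zinc finger factor, had a FPKM of 9.99 in WT and 0.89 and 1.03 in KO pluripotent cells, 13.0 against 8.67 and 10.9 after LIF withdrawal, and 15.2 against 12.6 and 12.3 in embryoid bodies. Its KO values outside pluripotent culture thus lay below those of WT, by a smaller factor than in pluripotent culture. Sall2, another zinc finger factor, was at 4.32 against 0.38 and 0.29 in pluripotent cells, 21.3 against 5.09 and 5.37 after LIF withdrawal, and 25.3 against 6.08 and 6.87 in embryoid bodies. Sox3, an X-linked neural progenitor factor, was at 4.65 against 0.55 and 0.47, then 16.3 against 4.10 and 3.36, and 24.4 against 2.75 and 3.84 in the same order. Unlike Zic5, Sall2 and Sox3 had KO values far below WT in all 3 cultures. Grhl2, an epithelial factor of the grainyhead family, was at 4.18 against 0.33 and 0.57 in pluripotent cells, 15.3 against 5.52 and 5.19 after LIF withdrawal, and 15.3 against 8.03 and 11.2 in embryoid bodies. Creb3l1, a factor released from the endoplasmic reticulum membrane, was at 25.8 against 4.09 and 4.64, 35.2 against 22.3 and 28.3, and 24.8 against 35.8 and 30.8, so that KO lay above WT in embryoid bodies.

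Other nuclear regulators did not share one pattern outside pluripotent culture. Id2, which binds and blocks bHLH factors, had a FPKM of 23.7 in WT and 4.69 and 6.63 in KO pluripotent cells, 68.5 against 53.4 and 64.1 after LIF withdrawal, and 49.2 against 102 and 107 in embryoid bodies. Adnp, a zinc finger and homeobox protein that works with the remodeller CHD4, was at 10.3 against 2.09 and 1.95 in pluripotent cells, 14.5 against 20.1 and 20.3 after LIF withdrawal, and 8.83 against 13.9 and 15.01 in embryoid bodies. Both genes had their highest values in differentiated KO libraries, on the other side of WT from their pluripotent values. Smarca1, an ISWI remodelling ATPase encoded on the X chromosome, was at 9.61 against 0.38 and 0.58, 7.39 against 3.87 and 5.22, and 5.10 against 5.51 and 5.99. Zscan4b, of a gene family active in 2-cell embryos and in rare 2-cell-like stem cells, was at 25.9 against 0.93 and 1.80, 27.6 against 7.38 and 7.64, and 35.9 against 11.5 and 8.96. Its expected counts were not whole numbers, so reads were shared with near-identical copies and its own level is uncertain; the same holds for Acot1, Gm5796 and gene 19368.

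Signalling members included a ligand, receptors and intracellular enzymes. Fgf15, a secreted fibroblast growth factor of the embryonic brain and the intestine, had the largest ratio of all 46: its FPKM was 19.2 in WT and 0.80 and 1.25 in KO pluripotent cells, 62.6 against 16.2 and 20.2 after LIF withdrawal, and 32.8 against 22.5 and 22.4 in embryoid bodies. The lowest of the other 7 libraries was a KO library after LIF withdrawal, and it stood 9.53-fold above the higher KO pluripotent value with 0.5 added to both. Kit, the receptor for stem cell factor, was at 17.8 against 1.54 and 2.25, 15.7 against 12.3 and 17.0, and 11.5 against 17.5 and 17.7. Notch3, a Notch receptor, was at 8.74 against 2.01 and 2.27, 25.1 against 10.7 and 12.3, and 13.0 against 10.6 and 10.6. After LIF withdrawal, Kit in WT lay between both KO values, whereas Notch3 was clearly lower in both KO libraries. Ptch1, the Hedgehog receptor and itself a target of that pathway, was at 8.57 against 0.95 and 1.40, 9.05 against 8.30 and 10.03, and 5.51 against 7.25 and 10.2. Tnfrsf19, a receptor of the TNF family, was at 3.37 against 0.36 and 0.38, 13.1 against 3.79 and 4.01, and 10.8 against 5.26 and 5.37. Ptch1 in WT lay between the KO values after LIF withdrawal, and Tnfrsf19 in KO stayed below WT in each culture. Lrp2, the endocytic receptor megalin, was at 3.98 against 0.26 and 0.38, 12.9 against 5.67 and 6.15, and 8.5 against 4.97 and 5.36. Mcf2 was at 10.96 against 1.33 and 1.36, 19.7 against 16.6 and 19.4, and 7.74 against 23.4 and 23.6. Pak1, a kinase that Rac and Cdc42 activate, was at 11.1 against 2.12 and 2.44, 22.3 against 15.4 and 16.1, and 27.9 against 18.6 and 19.4. Of these 3 genes, Mcf2 alone had KO above WT in embryoid bodies.

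**Figure D2:**
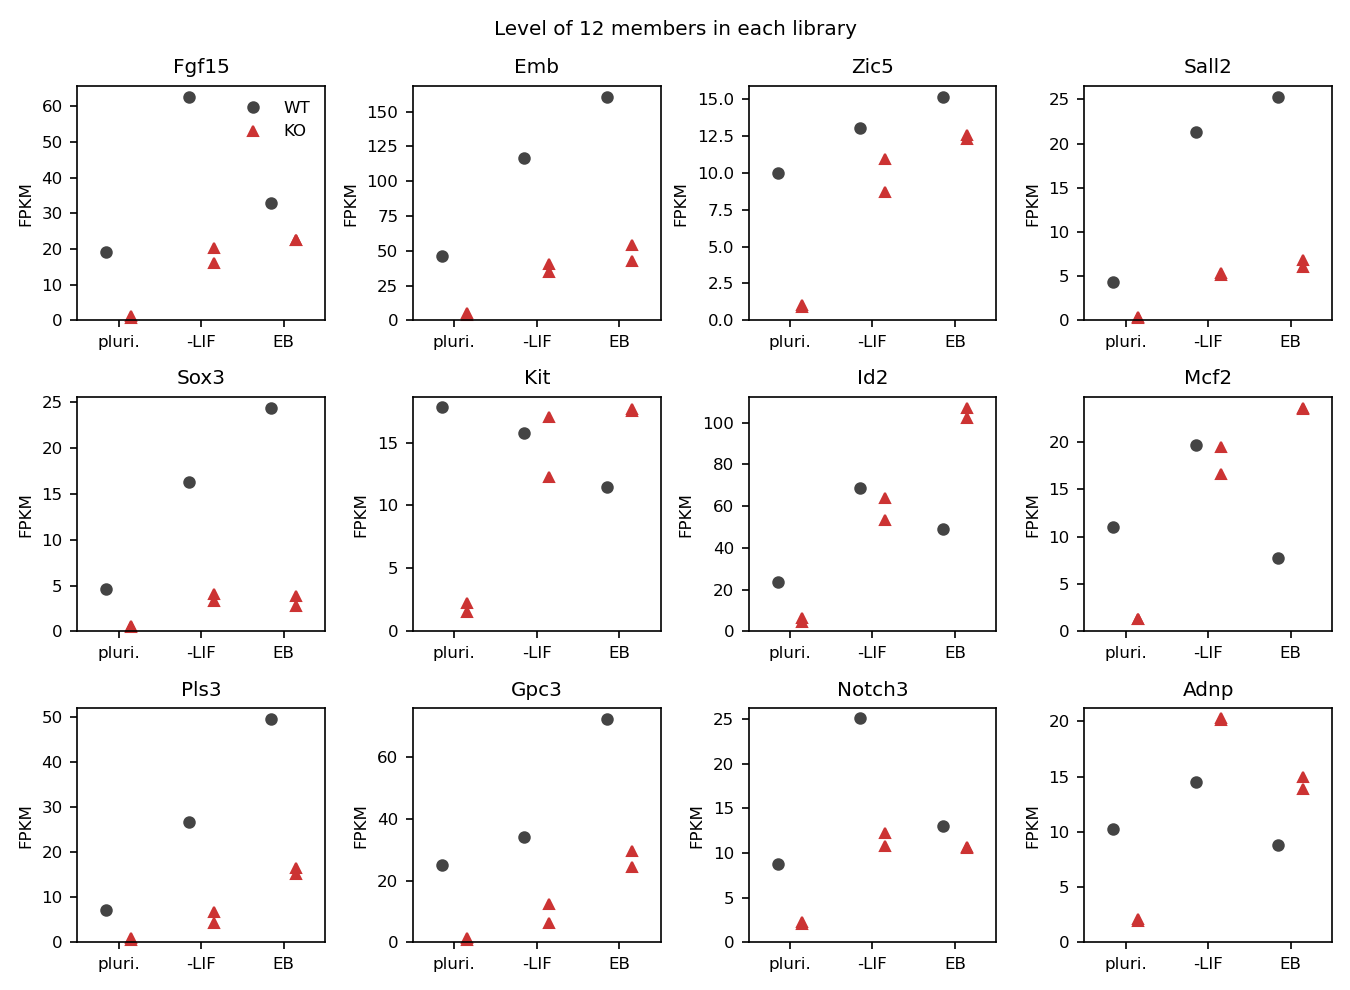
FPKM of 12 members in each library (y axis, linear and starting at 0) by culture (x axis: pluripotent, 96 h without LIF, embryoid bodies); grey circles are the single WT library and red triangles the 2 KO libraries of each culture. Sall2, Sox3 and Zic5 have KO below WT in all 3 cultures, with a smaller relative gap for Zic5 outside pluripotent culture, and Id2, Mcf2, Kit and Adnp have KO above WT in embryoid bodies.

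The remaining named members act at the cell surface, in the cytoskeleton, in the matrix or in transport. Emb, a partner of monocarboxylate transporters at the plasma membrane, had a FPKM of 46.4 in WT and 3.77 and 5.12 in KO pluripotent cells, 117 against 35.0 and 40.2 after LIF withdrawal, and 161 against 42.4 and 54.5 in embryoid bodies. Gpc3, a heparan sulfate proteoglycan that modulates growth factor signalling, was at 24.9 against 0.64 and 1.47, 34.0 against 6.41 and 12.4, and 72.3 against 24.4 and 29.7. In both genes every KO library was below the WT library of its culture. Pls3, an actin bundling protein, was at 7.29 against 0.58 and 1.09, 26.8 against 4.34 and 6.74, and 49.7 against 15.3 and 16.4. Tspan7, a tetraspanin, was at 15.5 against 0.49 and 1.38, 32.4 against 5.15 and 6.81, and 39.1 against 16.4 and 17.9. Both showed the same order of WT above KO throughout. Mmp2, a secreted gelatinase, was at 11.9 against 1.06 and 2.19, 28.4 against 7.65 and 11.8, and 31.5 against 23.9 and 23.2. Slc7a3, a transporter of arginine and lysine and the member with the highest FPKM in pluripotent WT cells, was at 59.0 against 8.20 and 11.99, 71.8 against 54.7 and 54.4, and 61.3 against 71.8 and 77.4. Actn3, the alpha-actinin known from fast muscle fibres, ran the other way in WT: it was at 17.0 against 0.80 and 1.25 in pluripotent cells, 8.30 against 5.41 and 6.76 after LIF withdrawal, and 5.02 against 4.99 and 5.68 in embryoid bodies. Its WT and KO values overlapped in embryoid bodies, at a level below that of pluripotent WT cells. Armcx2, an armadillo repeat protein encoded on the X chromosome, was at 17.5 against 0.92 and 1.56, 22.8 against 7.69 and 10.2, and 28.8 against 20.04 and 22.3.

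Promoter windows of members were read to show the sequence at their starts and the motifs they hold. Windows of 250 bases before to 50 bases after the gene start were taken from RefSeq on GRCm38.p6, which is not the build of the deposited tables, and 35 members matched, with 50 windows. Their median ratio of observed to expected CpG was 0.519, against 0.782 over 10185 windows of the genes that met the level condition and 0.384 over all 32851 windows. On both strands, CTTTGAT, a core that TCF/LEF factors recognise, was found in 5 of the 50 member windows (10%: Acot1, Armcx2, Emb, Plch1 and Tnfrsf19), in 2.49% of the windows of genes that met the level condition and in 3.73% of all windows. The GC box GGGCGG was in 64% of the member windows, 65.5% of the windows of genes that met the level condition and 35.7% of all windows. The E-box CACGTG was in 8%, 10.6% and 7.15% and TATAAA in 4%, 6.37% and 13.6%, in the same order, and adjoining GC boxes in the Tnfrsf19 window share a base. Neither TGACTCA nor CCGGAAG occurred in a member window, against 3.23% and 19.7% of the windows of genes that met the level condition and 5.2% and 8.86% of all windows. The 3 windows of Emb (chr13:117220323-117220622, plus strand), Armcx2 (chrX:134809172-134809471, minus strand) and Tnfrsf19 (chr14:61037938-61038237, minus strand) are printed because they hold CTTTGAT, and that of Zic5 (chr14:122465609-122465908, minus strand) as a member with a large ratio and none of it. Capitals mark every motif found, on either strand, so ATCAAAG in capitals is CTTTGAT on the other strand. The windows run 5′ to 3′ on the gene's strand:
Emb: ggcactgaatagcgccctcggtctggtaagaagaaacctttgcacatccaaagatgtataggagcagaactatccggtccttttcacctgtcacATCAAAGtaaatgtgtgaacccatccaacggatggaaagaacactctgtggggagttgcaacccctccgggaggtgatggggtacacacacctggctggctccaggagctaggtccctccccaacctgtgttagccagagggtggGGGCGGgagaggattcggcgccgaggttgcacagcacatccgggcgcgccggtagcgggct
Armcx2: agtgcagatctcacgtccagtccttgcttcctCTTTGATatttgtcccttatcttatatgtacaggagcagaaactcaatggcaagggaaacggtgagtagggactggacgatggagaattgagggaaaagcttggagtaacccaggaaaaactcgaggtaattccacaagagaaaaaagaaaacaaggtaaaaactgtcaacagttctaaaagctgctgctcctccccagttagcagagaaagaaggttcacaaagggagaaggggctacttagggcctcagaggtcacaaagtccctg
Tnfrsf19: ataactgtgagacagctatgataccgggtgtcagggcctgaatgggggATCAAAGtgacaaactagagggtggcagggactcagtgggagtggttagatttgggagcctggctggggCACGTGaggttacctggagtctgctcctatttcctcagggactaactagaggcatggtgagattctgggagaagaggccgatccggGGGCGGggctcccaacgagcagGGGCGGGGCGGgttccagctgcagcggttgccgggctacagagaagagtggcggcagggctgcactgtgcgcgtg
Zic5: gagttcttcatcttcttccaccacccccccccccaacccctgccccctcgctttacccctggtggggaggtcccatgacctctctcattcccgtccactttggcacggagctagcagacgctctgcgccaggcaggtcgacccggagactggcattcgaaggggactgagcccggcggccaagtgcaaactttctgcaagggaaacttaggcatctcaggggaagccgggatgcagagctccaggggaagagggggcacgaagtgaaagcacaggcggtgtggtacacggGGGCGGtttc
The CTTTGAT match begins 156 bases before the start in Emb, 218 in Armcx2 and 202 in Tnfrsf19. A match describes letters in the window and was not tested as a site.

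The threshold fell within a run of similar genes. Just inside it, the lowest of the other 7 libraries exceeded the higher KO pluripotent library 3.04-fold for Pls3, 3.03-fold for Mmp2, 3.02-fold for Hook1, a microtubule linker protein, and 3.01-fold for Tspan7. Just outside it were Ttc21b and Robo1, at 2.88-fold each, Skil at 2.88-fold and Flywch2 at 2.87-fold, where Robo1 is an axon guidance receptor and Skil a repressor of TGF-beta signalling. Skil, for instance, had a FPKM of 19.3 in its lowest other library and 6.39 in the higher KO pluripotent library.

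After 96 h without LIF, most members were also lower in KO than in WT cells, so the word "only" in the working name does not hold for their genotype difference. This comparison uses neither KO pluripotent library, but its own libraries entered the rule. Each had to reach a FPKM of 2 and to lie at least 3-fold above the higher KO pluripotent library, with 0.5 added. The lowest of the 7 was a KO library for 30 members and the WT pluripotent library for 12. The same limit holds for the comparisons below in embryoid bodies, in WT cells and between both KO cultures. In edgeR's quasi-likelihood test over 13990 genes, 30 of the 46 members were lower in KO at an adjusted p below 0.05, 1 was higher and 15 did not pass, where 17.5% of all genes tested were lower and 18.4% higher. The members' median log2 difference was -0.73 against 0 over all genes tested, 41 of 46 were below 0, and 21 were lower by at least 2-fold. Tspan7 had a log2 difference of -2.38 ± 0.20 (SE; adjusted p = 2.3e-06), Pls3 of -2.22 ± 0.18 (adjusted p = 1.68e-06), Sox3 of -2.06 ± 0.19 (adjusted p = 5.25e-06) and Sall2 of -1.98 ± 0.11 (adjusted p = 1.3e-07). Among signalling genes, the difference was -1.72 ± 0.12 for Fgf15, -1.69 ± 0.13 for Tnfrsf19 and -1.06 ± 0.09 for Notch3. Adnp was the member that was higher, by 0.53 ± 0.10 (adjusted p = 0.00117). Zic5 (-0.35 ± 0.15), Slc7a3 (-0.33 ± 0.12), Kit (-0.05 ± 0.16), Mcf2 (-0.05 ± 0.10), Id2 (-0.16 ± 0.12), Ptch1 (0.08 ± 0.19) and Actn3 (-0.39 ± 0.18) did not pass, on the log2 scale with SE. Some markers of differentiated cell types were lower in KO as well. The summed FPKM of the 10 primitive streak and mesoderm markers was 62.6 in WT and 13.4 and 16.8 in KO, with 9 of 10 lower in both KO libraries. T, a defining marker of the streak, was at 17.5 against 0.18 and 0.18. The sum of the 9 trophoblast markers was 127 in WT and 33.9 and 38.0 in KO, with 8 of 9 lower in both. Most of it came from Krt8 (45.9 against 10.5 and 9.11), Krt18 (37.3 against 5.56 and 6.31) and Eomes (21.6 against 10.4 and 14.2). Eomes is also on the streak and mesoderm list, so the sums are not separate. Cdx2, Hand1 and Elf5 were at 3.82, 1.64 and 0.09 in WT, and Ascl2, the higher one, at 3.70 against 5.04 and 5.34. Neuroectoderm markers summed to 68.5 in WT and 62.7 and 59.7 in KO, with 6 of 9 lower and 2 higher in both. Tubb3, the largest part, was at 43.6 against 45.1 and 39.8, and Sox1 at 0.37 against 8.99 and 8.82. Endoderm markers summed to 9.37 against 8.08 and 7.93, with 5 of 10 lower and 4 higher. Fibroblast markers summed to 18.2 against 8.97 and 11.1, with 6 of 10 lower and 1 higher. The spread in this test came from the KO pairs, with 3 residual degrees of freedom, and each lone WT library was assumed to vary like them.

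In embryoid bodies the members divided further. Of the 46, 23 were lower in KO, 6 were higher and 17 did not pass, where 17.8% of all genes tested were lower and 19.4% higher; the members' median log2 difference was -0.43 against 0 over all genes tested. Lower by at least 2-fold were 11, and higher by at least 2-fold were 2. Sox3 had a log2 difference of -2.89 ± 0.19 (SE; adjusted p = 4.33e-07), Sall2 of -1.99 ± 0.11 (adjusted p = 1.23e-07), Zscan4b of -1.82 ± 0.17 (adjusted p = 7.21e-06) and Emb of -1.73 ± 0.13 (adjusted p = 1.23e-06). In the other direction, Mcf2 was higher by 1.60 ± 0.11 (adjusted p = 9.67e-07), Id2 by 1.08 ± 0.12 (adjusted p = 3.48e-05) and Adnp by 0.73 ± 0.11 (adjusted p = 0.000199). Kit, at 0.61 ± 0.16, passed in edgeR (adjusted p = 0.0105) and not in limma. Creb3l1, at 0.42 ± 0.13 (adjusted p = 0.0273), passed in neither DESeq2 nor limma, and its difference was 0.31 without the first KO embryoid body library, where it no longer passed. Ptch1, at 0.66 ± 0.21 (adjusted p = 0.0252), passed in neither DESeq2 nor limma and fell short, at 0.39, without the second KO embryoid body library. Beside these calls, the summed FPKM of the streak and mesoderm markers was 106 in WT and 17.7 and 17.2 in KO embryoid bodies, with 8 of 10 lower in both KO libraries, and T was at 24.0 against 0.05 and 0.18. That of the trophoblast markers was 142 in WT and 52.9 and 54.6 in KO, with 8 of 9 lower in both, and most of it again came from Krt18, Eomes and Krt8. Neuroectoderm markers summed to 44.2 in WT and 56.0 and 48.4 in KO, with 4 of 9 lower and 3 higher in both. Tubb3, the largest part, was at 20.3 against 37.2 and 31.0, and Sox11, the next largest in WT, at 15.2 against 4.61 and 5.83. Endoderm markers summed to 12.6 against 9.35 and 9.03, with 4 of 10 lower and 4 higher. Fibroblast markers summed to 34.2 against 23.3 and 25.1, with 5 of 10 lower and 3 higher. Across both differentiated cultures, 22 members were lower in KO in each, among them Fgf15, Emb, Sall2, Sox3, Lrp2, Tnfrsf19, Grhl2, Gpc3, Notch3, Zscan4b, Pls3 and Tspan7. Of these, the embryoid body calls for Fgf15 and Grhl2 were lost in limma, those for Gpc3, Lrp2 and Tspan7 in limma with 0.1 added, that for Gpc3 also in DESeq2, and that for Notch3, at -0.30, in DESeq2, in limma and without either KO embryoid body library. Adnp was higher in both cultures, and 10 members, among them Zic5, Slc7a3, Actn3 and Hook1, passed in neither. The share of all genes tested with such joint calls was not counted, so these joint numbers have no reference. The difference of the genotype effect between both cultures was tested after the values had been seen: it was higher in embryoid bodies for 7 members and lower for 1, where 2.11% and 1.33% of all genes tested passed in those directions. With limma on log2(FPKM + 0.1), 10 members passed as lower and 3 as higher in embryoid bodies.

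**Figure D3:**
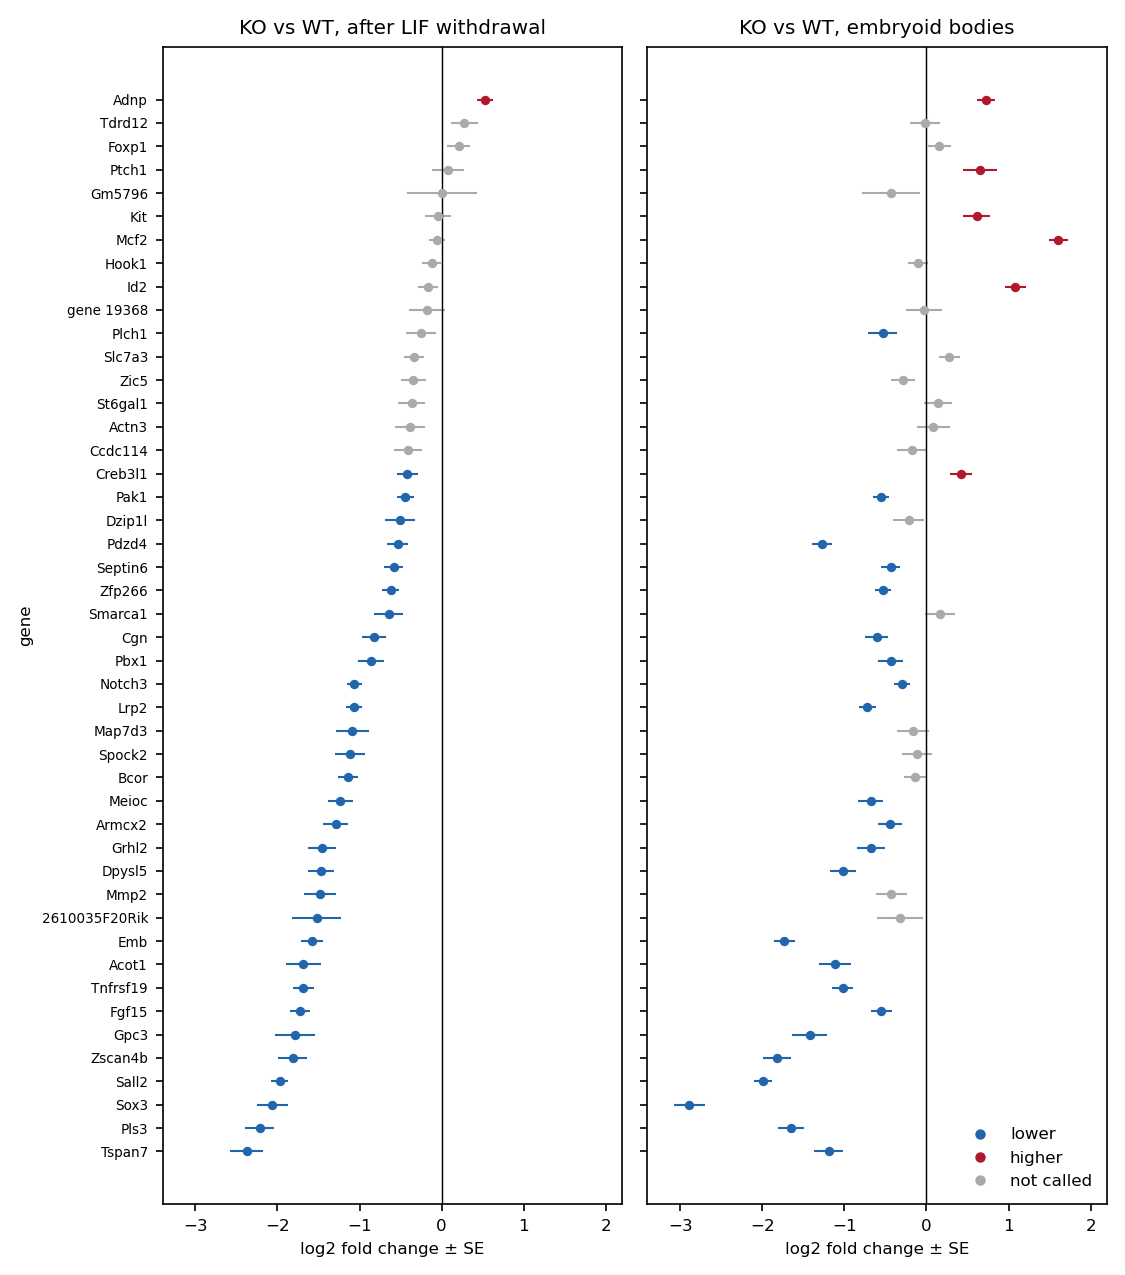
Log2 fold change of KO against WT (x axis) with its standard error for each of the 46 members (y axis, in the order of the left panel), after LIF withdrawal (left) and in embryoid bodies (right); blue is lower and red higher in KO at an adjusted p below 0.05, grey did not pass. On the left 30 members are lower and 1 is higher, and on the right 23 are lower and 6 are higher.

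In WT cells, most members that changed rose on differentiation. These 2 comparisons share the WT pluripotent library, and each also shares a differentiated WT library with a genotype comparison above; each group is a single library. After LIF withdrawal 24 of the 46 members rose, 1 fell and 21 did not pass, where 11.6% of all genes tested rose and 8.9% fell, and the members' median log2 change was 0.55 against 0.0030 over all genes tested. Sall2 rose by 2.35 ± 0.14 (SE; adjusted p = 5.04e-07), Tnfrsf19 by 1.97 ± 0.16 (adjusted p = 5.62e-06), Pls3 by 1.91 ± 0.21 (adjusted p = 6.42e-05) and Grhl2 by 1.90 ± 0.21 (adjusted p = 7.64e-05). Actn3 fell, with a log2 change of -1.0 ± 0.20 (adjusted p = 0.00377), a call lost in limma with 0.1 added. In embryoid bodies 26 rose, 5 fell and 15 did not pass, where 19.7% of all genes tested rose and 18.9% fell, and the median log2 change was 0.61 against 0.0061. Pls3 rose by 2.79 ± 0.21 (adjusted p = 1.5e-06), Sall2 by 2.60 ± 0.14 (adjusted p = 1.36e-07), Sox3 by 2.41 ± 0.22 (adjusted p = 7.95e-06) and Grhl2 by 1.89 ± 0.21 (adjusted p = 3.67e-05). Actn3 changed by -1.74 ± 0.21, Smarca1 by -0.90 ± 0.20, Kit by -0.61 ± 0.18 and Mcf2 by -0.53 ± 0.13; the call for Kit was lost in limma, that for Smarca1 in limma with 0.1 added and that for Mcf2 in DESeq2. The streak and mesoderm sum in WT went from 7.90 in pluripotent cells to 62.6 and 106 in these cultures, and the trophoblast sum from 58.7 to 127 and 142. Of the trophoblast markers, Krt8 went from 14.35 to 45.9 and 33.1, Krt18 from 13.45 to 37.3 and 40.8, and Ascl2 from 6.88 to 3.70 and 2.17. Eomes, which is on both lists, went from 5.10 to 21.6 and 35.0. The neuroectoderm sum went from 135 to 68.5 and 44.2, and Tubb3, its largest part, from 118 to 43.6 and 20.3. The other neuroectoderm markers did not all fall: Sox11 rose from 2.09 to 7.49 and 15.2, and Ncam1 fell from 7.13 to 1.92 and 2.03. The fibroblast sum went from 39.7 to 18.2 and 34.2, and the endoderm sum from 8.03 to 9.37 and 12.6. In both cultures 19 members rose and Actn3 fell, and the share of all genes tested with such joint calls was not counted. Mcf2 rose by 0.87 ± 0.12 after LIF withdrawal and was lower in embryoid bodies. Across all 9 libraries, 32 of the 46 members were highest in a differentiated WT library. The rule kept the KO pluripotent libraries from being the highest, and the share among all genes that met the level condition was not counted.

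**Figure D4:**
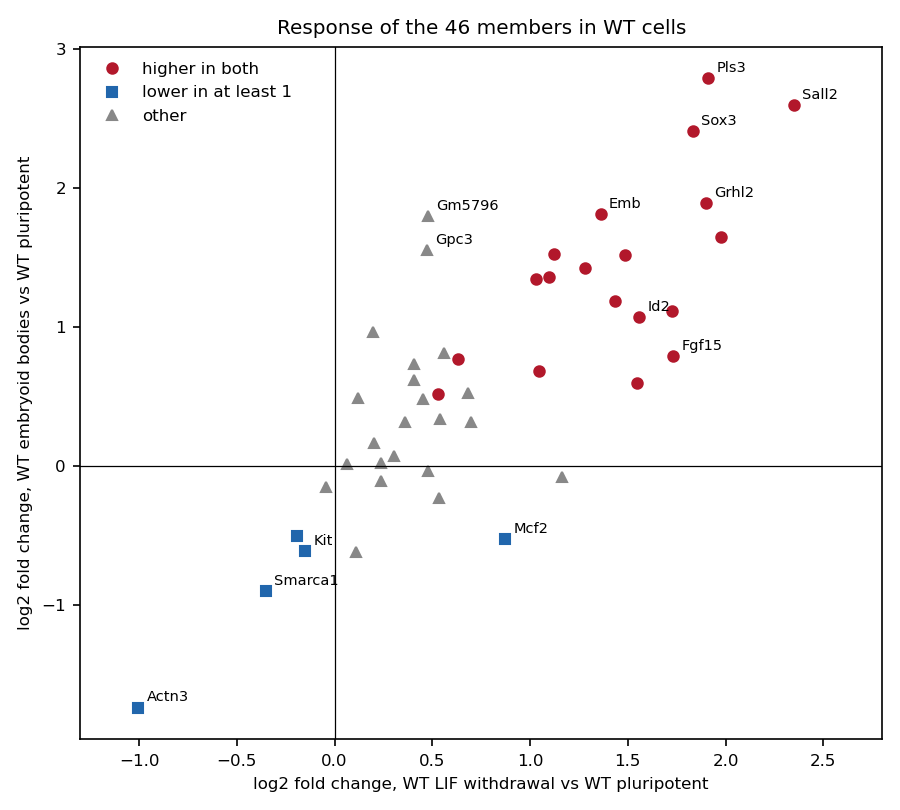
Log2 fold change of the 46 members in WT cells after LIF withdrawal (x axis) and in embryoid bodies (y axis), each against the WT pluripotent library, which both axes share; red circles rose in both, blue squares fell in at least 1 and grey triangles are the rest. Sall2, Pls3, Sox3 and Grhl2 are at the upper right and Actn3 is at the lower left.

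Between both differentiated KO cultures, levels were closer. In KO embryoid bodies against KO cells after LIF withdrawal, with 2 libraries a group, 19 members were higher, 4 were lower and 23 did not pass, where 16.7% of all genes tested were higher and 17.6% lower; the members' median log2 difference was 0.26 against 0.015. Gpc3 was higher by 1.45 ± 0.21 (SE; adjusted p = 0.000365), Tspan7 by 1.45 ± 0.18 (adjusted p = 0.00012), Pls3 by 1.44 ± 0.16 (adjusted p = 5.99e-05) and Mmp2 by 1.20 ± 0.17 (adjusted p = 0.000277). Adnp was lower, with a log2 difference of -0.56 ± 0.08 (adjusted p = 0.000259). Tdrd12, a Tudor domain protein of the piRNA pathway, had a difference of -0.51 ± 0.14 (adjusted p = 0.0143), Hook1 of -0.29 ± 0.10 (adjusted p = 0.0403) and Lrp2 of -0.27 ± 0.09 (adjusted p = 0.0326). Those 3 calls did not hold throughout: Tdrd12 was at -0.40 and no longer passed without the first KO embryoid body library, where Hook1 was at -0.16 and Lrp2 at -0.21, and without the second KO library after LIF withdrawal Hook1 was at -0.19 and Lrp2 at -0.23; Lrp2 also failed at -0.32 without the second KO embryoid body library, and all 3 failed in DESeq2. The number of members that passed fell from 23 to 15 without the first KO library after LIF withdrawal, to 14 without the first KO embryoid body library and to 13 without the second, and it was 10 in DESeq2 and 11 in limma with 0.1 added.

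Of 23 gene lists for pathways of stem cells and their differentiation, 7 held a member and 10 members were on one. The formative and primed epiblast list held Sall2, Sox3 and Zic5, and of its other 19 tested genes 10 were lower and 5 higher in KO after LIF withdrawal and 10 were lower and 2 higher in embryoid bodies, with median log2 differences of -0.48 and -0.57. In pluripotent culture, where 26.3% of all genes tested were lower and 25.5% higher in KO, 10 of those 19 were lower and 3 higher, with a median of -0.57. Zic2, which met the numbers of the rule and was left out by name, is among the 19, so its low pluripotent KO value was set by the rule. In WT cells 13 of the 19 rose and 1 fell after LIF withdrawal. Notch3 and Ptch1 were on the list for Notch and Hedgehog, whose other 18 tested genes had 12 lower and 2 higher in pluripotent KO cells, 8 lower and 3 higher after LIF withdrawal, and 6 lower and 5 higher in embryoid bodies. Slc7a3 was on the list of ATF4 targets, the amino acid stress response, whose other 25 genes had 19 lower and none higher in pluripotent KO cells, 17 lower and 2 higher after LIF withdrawal and 12 lower and 4 higher in embryoid bodies. Fgf15 was on the list of FGF and ERK targets, whose other 25 genes went with 12 higher and 6 lower in pluripotent KO cells, 9 higher and 8 lower after LIF withdrawal and 6 higher and 9 lower in embryoid bodies. Id2 was on the TGF-beta and BMP list, whose other 25 genes had 11 lower and 7 higher in pluripotent KO cells, 9 lower and 4 higher after LIF withdrawal, and 6 lower and 9 higher in embryoid bodies. Gpc3 was on the matrix list, whose other 28 tested genes had 12 lower and 9 higher in pluripotent KO cells, 8 lower and 5 higher after LIF withdrawal, and 9 lower and 11 higher in embryoid bodies. Zscan4b was on the list of 2-cell-like genes, whose other 8 tested genes were lower in KO in each of the 3 cultures, but these genes share reads within families and are not 8 separate measurements.

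X-linked genes were frequent among the members. Of the 45 with a chromosome in the mouse gene table, 12 were X-linked (26.7%): Mcf2, Slc7a3, Map7d3, Smarca1, Armcx2, Gpc3, Septin6, Bcor, Sox3, Pdzd4, Pls3 and Tspan7. Of 9873 genes that met the level condition and had a chromosome, 319 were X-linked (3.23%). The mirrored rule, which asks for genes at least 3-fold higher in both KO pluripotent libraries than in the other 7, gave 57 genes with none on the X. Per chromosome, members made up 3.76% of the X-linked genes that met the level condition, 1.37% of those on chromosome 14, where 5 members lie, and 0 to 0.64% on the other chromosomes. On the Y chromosome, 4 genes met the level condition, which covers WT and KO libraries, and 0 were members. The other 307 X-linked genes that met the level condition had a median log2 difference of KO against WT of -0.14 in pluripotent culture, and 13.7% of them were at least 2-fold lower. For 9516 autosomal genes the median was 0.044 and 5.75% were at least 2-fold lower. After LIF withdrawal the medians were -0.011 for X-linked and 0.037 for autosomal genes, and in embryoid bodies they were -0.041 and 0.012. Of the 12 X-linked members, 10 were lower in KO after LIF withdrawal and none was higher, and 7 were lower and 1, Mcf2, was higher in embryoid bodies. Of the other 34 members, 20 were lower and 1 higher after LIF withdrawal, and 16 were lower and 5 higher in embryoid bodies. Xist, the RNA that coats an inactive X, had a FPKM of 1.05 in WT and 2.19 and 2.32 in KO pluripotent cells, 0.78 against 1.55 and 1.93 after LIF withdrawal, and 0.77 against 1.62 and 1.33 in embryoid bodies; with the strand setting not given in the sources used here, its reads cannot be told apart from those of its antisense partner Tsix. These shares describe genes that the rule chose and were not tested, and neither was the part of Xist in them. Zic5 lies next to Zic2, and Fgf15 has 1 protein-coding gene between it and Ccnd1; both neighbours met the numbers of the rule and were left out by name.

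**Figure D5:**
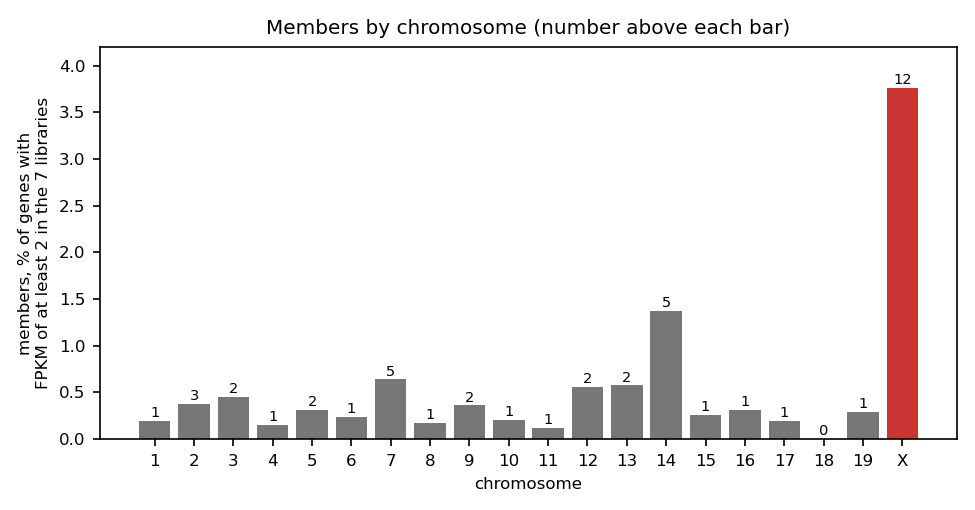
Members as a percentage of the genes with FPKM of at least 2 in the 7 other libraries (y axis), by chromosome (x axis), with the number of members above each bar and the X chromosome in red. The X holds 12 members, 3.76% of its genes, and chromosome 14 is next with 5 members, 1.37%. The Y, with 4 such genes and 0 members, is not drawn.

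The members were also longer than the genes they were drawn from, with a median deposited gene length of 3916 bases against 2745.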

How the data were processed

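RNA-seq libraries of 9 samples were used: 1 WT and 2 KO in each of 3 cultures, grouped by the labels. The submitters' processing notes name Bowtie2 and the genome build mm8. The sources used here give no quantifier, strand setting or annotation. Per the file headers, each deposited table gives a gene length, an expected count and an FPKM for each gene. The authors' deposited expected counts were rounded to whole numbers for tests; 78.0% to 78.4% of them were within 0.005 of whole. The authors' deposited FPKM values chose the members, with an unlisted gene set to 0. The members and all gene lists were chosen with earlier results of these data known.

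All 9 libraries entered one edgeR quasi-likelihood fit (edgeR 4.0.16, R 4.3.3) with a mean for each of 6 groups and TMM factors, over the 13990 genes whose mean FPKM reached 0.5, as it did for all 46 members. The biological coefficient of variation was 6.52%. P-values were Benjamini-Hochberg adjusted over all genes tested, and a gene was called below 0.05. The standard error was the log2 change divided by the square root of F. Both KO libraries of each group differed beyond counting noise (chi-square per degree of freedom 2.88 to 4.37). The fit was tested on simulated data. Alternatives were DESeq2 1.42.0, limma 3.58.1 on log2(FPKM + 1) and log2(FPKM + 0.1), DESeq2 size factors, library totals, no filter, a replicate block and each library left out. Named members were the 20 with the largest ratio, up to 4 called in each direction per comparison, those on a list and the 4 nearest the threshold; others are named where a count, motif or chromosome holds them, chosen after their values were seen. Chromosomes and promoters came from RefSeq tables on GRCm38.p6, matched by gene ID, and 45 members matched. Counting intervals cover counting error only.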

Additional observations from a re-analysis of the deposited data

Results flagged for a closer look

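For 8 members the KO against WT difference was not the same in embryoid bodies as after LIF withdrawal, by edgeR's test of the difference itself, with Benjamini-Hochberg adjustment over all genes; the test was added after the values had been seen. Mcf2 differed most: its genotype difference was 1.66 higher in embryoid bodies on the log2 scale (adjusted p = 0.00042), from -0.05 to 1.60, and it passed in each alternative run, DESeq2 and limma included. For Id2 the difference was 1.25 (adjusted p = 0.00305) and for Fgf15 1.17 (adjusted p = 0.00522); both passed in each alternative but limma. Fgf15 was lower in KO in both cultures, by less in embryoid bodies, whereas the KO libraries of Id2 were close to WT after LIF withdrawal and above it in embryoid bodies. For Notch3 the difference was 0.76 (adjusted p = 0.0117) and for Bcor, a corepressor of a Polycomb complex, 1.002 (adjusted p = 0.0139). Neither passed in limma; Notch3 was at 0.76 (adjusted p = 0.0513) without the first KO embryoid body library, and Bcor at 0.96 (adjusted p = 0.0592) without the second. Tspan7 (1.18, adjusted p = 0.0365), Creb3l1 (0.84, adjusted p = 0.0324) and Pdzd4 (-0.74, adjusted p = 0.0482) did not pass in DESeq2 or limma. Without the first KO library after LIF withdrawal they were at 1.01, 0.69 and -0.79, and without the first KO embryoid body library at 1.25, 0.72 and -0.71, and none of the 3 passed in either case; without the second KO embryoid body library Tspan7 was at 1.12 and Pdzd4 at -0.76 and both failed, as did Pdzd4 at -0.69 without the second KO library after LIF withdrawal. Pdzd4 was the 1 member that passed with a lower value in embryoid bodies: its KO against WT difference was -0.54 after LIF withdrawal and -1.27 in embryoid bodies. Leaving out 1 library at a time left 5 to 15 members that passed: 5 without the first KO library after LIF withdrawal or without either KO embryoid body library, and 15 without the second KO library after LIF withdrawal. The replicate block gave 17. With 1 WT library per culture, a deviation of that library and a genotype effect cannot be told apart.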

How the results depend on the processing

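The number of members depends on the rule: it was 145 at a 2-fold and 16 at a 4-fold threshold, 72 with 0.1 and 23 with 1 added to the FPKM, and 27 with a FPKM of at least 5; without 1 library it ran from 46 to 85, the latter without the second KO pluripotent library. Members called in embryoid bodies (29, KO against WT) were 18 in limma with 1 added and 13 with 0.1 added. With 0.1 added, limma called 15 members after LIF withdrawal in WT (25 in edgeR) and 14 in WT embryoid bodies (31 in edgeR). For KO embryoid bodies against KO LIF withdrawal (23), DESeq2 called 10 and limma with 0.1 added 11, and leaving out 1 library gave 13 to 23. KO against WT after LIF withdrawal (31) stayed between 24 and 35 over all alternatives. Over all genes DESeq2 called 2840 against 5011 in edgeR after LIF withdrawal and 2889 against 5204 in embryoid bodies, KO against WT. It called 1228 against 2867 and 2929 against 5400 in the same cultures of WT, and 2513 against 4793 between both KO cultures, where edgeR called 2950 and 2971 without the first and the second KO embryoid body library. Of 139 called changes of single members, 70 kept their call under every alternative, 112 did when each library was left out in turn, and 0 reversed. KO libraries of the same number deviated together with correlations of 0.0614 to 0.245, all positive and not all above 0.1. These values do not settle whether the numbers pair the cultures, and the labels do not say so, so the main fit used no block. With the replicate block 35, 31, 31, 33 and 28 members were called, each more than in the main fit. The order is KO against WT after LIF withdrawal, KO against WT in embryoid bodies, WT after LIF withdrawal, WT embryoid bodies and KO embryoid bodies. Without both KO pluripotent libraries the counts were 32, 31, 25, 33 and 24 in that order. Leaving out the lone WT library of a comparison gives no value. Other scalings moved the median of all genes by at most 0.0757 (log2).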
